A study of Danio rerio with 5 samples.

Results

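The genes described here are the 40 whose read counts in adult zebrafish kidney were at least 4-fold lower in both runx1 null libraries than in every wild-type library. CPM is the number of counts per 1000000 counts assigned to genes in a library. Values are given in the order wild type 1, 2 and 3 and runx1 null 5 and 6. A gene had to stand above 1 CPM in each of the 3 wild-type libraries, and the higher of its 2 null values had to be at most 0.25 of its lowest wild-type value. Of 32520 gene IDs counted, 13743 stood above 1 CPM in each wild-type library, and 45 of these met the fold, which is 0.327%. In the opposite direction, with the genotypes exchanged, 27 of 14671 genes met it, which is 0.184%. The thrombocyte genes itga2b and THBS1 (ENSDARG00000010785) and the B-cell genes PAX5, cd79a and cd79b met it too and were left out by name, which leaves the 40. Because the values of all 5 libraries chose these genes, the difference between the genotypes is given below as a description, and no test is read from it.

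The data are bulk RNA sequencing of whole dissected kidneys from Danio rerio of strain EK, aged about 2.5 months. The wild-type group (libraries 1, 2 and 3) and the runx1 null group (libraries 5 and 6) were siblings, and every library came from a pool of 3 kidneys. The null fish were homozygous for del8 (hg96), a single allele that by its name lacks 8 bp of runx1. In bulk tissue, fewer cells of a type and less RNA per cell cannot be told apart.

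In zebrafish the kidney marrow forms blood in the adult, so a kidney library mixes blood lineages with nephrons and other tissue. Runx1 is a transcription factor needed for blood stem cells to emerge in vertebrate embryos, and in mammals it also acts in megakaryocytes and in B and T lymphocytes. Thrombocytes, which keep their nucleus, do in fish what platelets do in mammals. B cells carry antibodies, each built from heavy and light immunoglobulin chains, and Toll-like receptors recognise molecules of microbes.

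The targeted gene did not separate the groups. RUNX1 (ENSDARG00000087646) had wild-type values of 4.43, 2.98 and 3.15 CPM and null values of 6.06 and 1.66 CPM. A count summed over the gene cannot show a deletion of this size, so this value does not check the labels. Gene counts per library were between 27631376 and 33752278, and 3 counts correspond to between 0.0889 and 0.109 CPM. The libraries differed in tissue markers within each genotype. The summed ovary list was 1740 CPM in wild type 2 and 11528 CPM in null 6, and between 10.7 and 29.3 CPM in the other 3 libraries. Nephron markers, which define the kidney, summed to between 179 CPM in wild type 3 and 4044 CPM in null 5. Of the 18 nephron markers matched, 1 was at 0 counts in wild type 3 and none in the other libraries. Erythroid markers summed to between 36858 and 68318 CPM in wild type, to 48882 CPM in null 5 and to 6791 CPM in null 6. The part of these tissue differences in the results below was not tested, except where values without a library or on another scale are given.

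**Figure D1:**
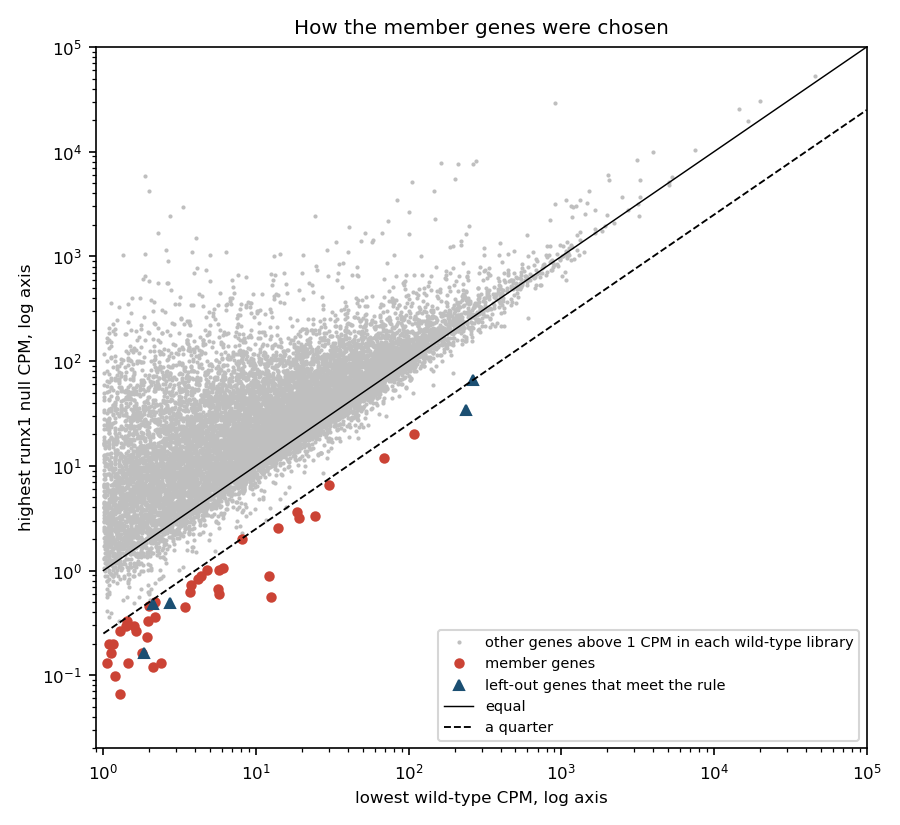
Each dot is a gene above 1 CPM in all 3 wild-type libraries, with its lowest wild-type CPM on the horizontal axis and its highest runx1 null CPM on the vertical axis, both on log scales. The 40 member genes and the 5 left-out genes lie on or under the dashed line, where the null value is 0.25 of the wild-type value.

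The 40 genes fell into 5 groups by what their names say, a grouping made after their values were seen. There were 4 genes named for immunoglobulin light chains, 3 Toll-like receptors and 10 other genes with a descriptive symbol. Another 17 carry only the name of the genomic clone in which they were annotated, and 6 have no symbol in the table of names. The median gene was at 5.59, 3.16 and 3.94 CPM in wild type, compared with 0.478 and 0.163 CPM in the null pools. Their summed level was 571, 416 and 640 CPM in wild type, against 63.8 CPM in null 5 and 37.4 CPM in null 6. The lowest wild-type value exceeded the highest null value by 4.06-fold to 22.4-fold, with a median of 5.88-fold.

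**Figure D2:**
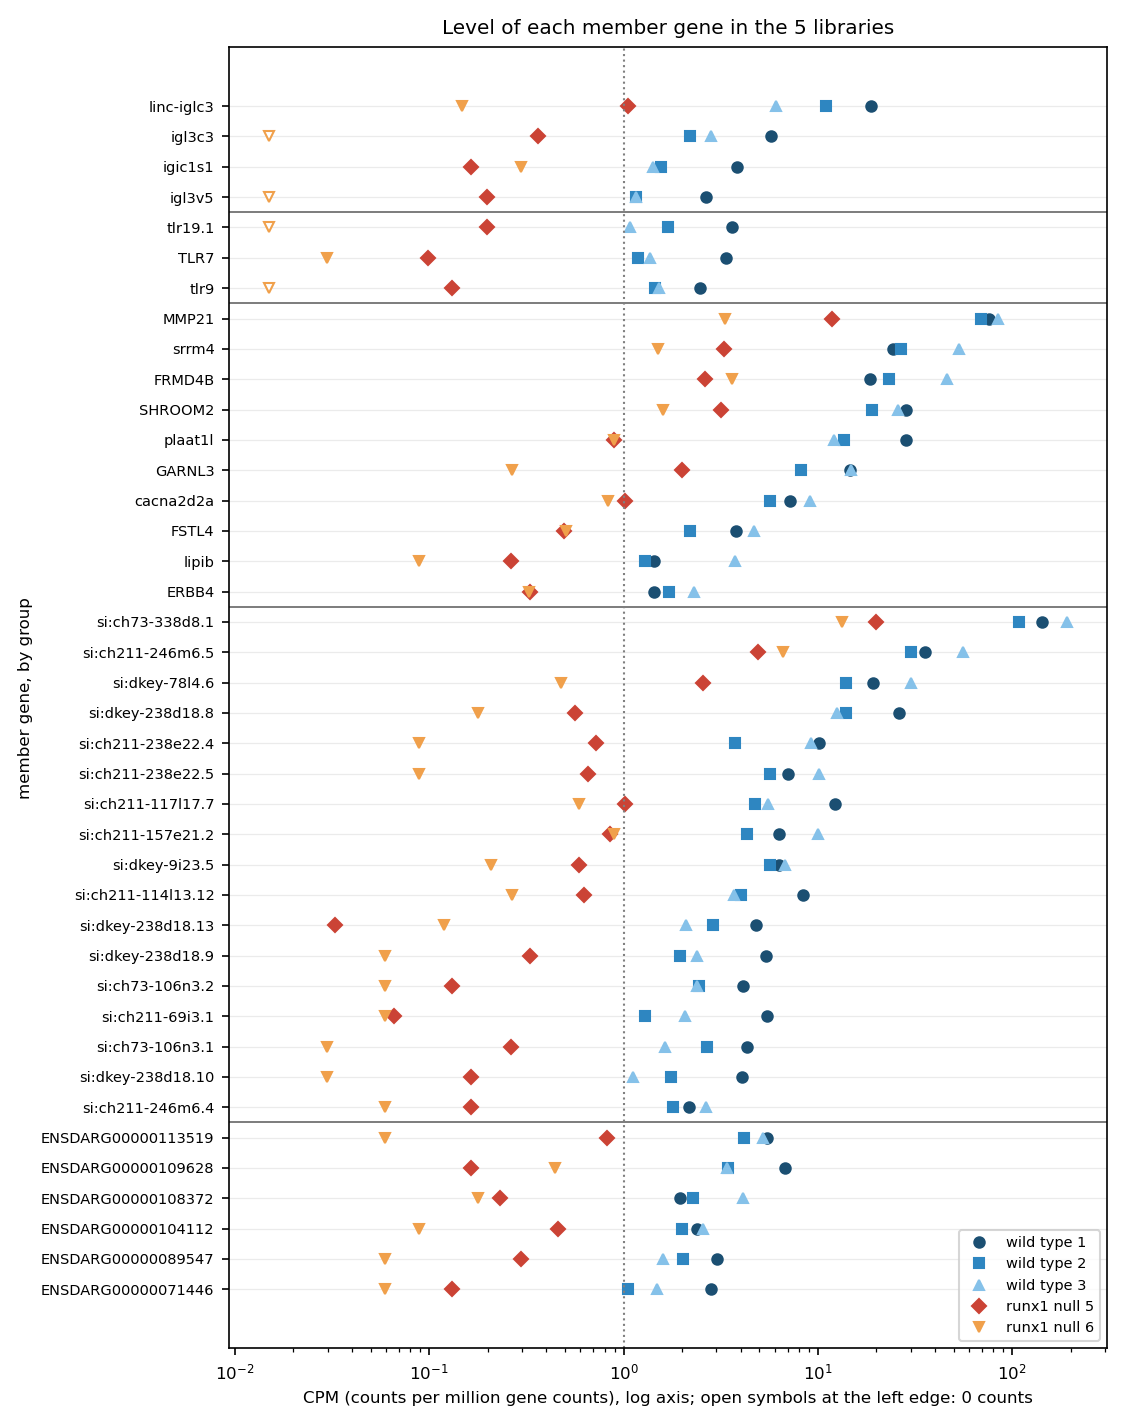
CPM of each of the 40 member genes in each library, on a log axis, with the genes grouped from top to bottom as light chains, Toll-like receptors, other symbols, clone names and no symbol. The dotted line marks 1 CPM, and open symbols mark the 4 genes with 0 counts in runx1 null 6.

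The 4 light-chain genes formed a group by name. Their lowest wild-type value exceeded the highest null value by a median of 5.81-fold, against 5.88-fold for all 40 genes. igic1s1 (ENSDARG00000093272), a light-chain constant gene, measured 3.86, 1.56 and 1.41 CPM in the wild-type pools, against 0.165 and 0.296 CPM in the null pools. Wild type 1 was high among the wild-type libraries, and the groups were apart by 4.76-fold at their nearest values. linc-iglc3 (ENSDARG00000069839), whose name ties it to a light-chain constant gene, had wild-type values of 18.9, 11.07 and 6.08 CPM and null values of 1.05 and 0.148 CPM. igl3c3 (ENSDARG00000071461), named as a constant gene, had wild-type counts of 179, 66 and 78 and null counts of 11 and 0. igl3v5 (ENSDARG00000079987), named as a variable gene, drew 83, 35 and 32 counts in the wild-type pools, against 6 and 0 in the null pools. All 4 were highest in wild type 1. The log2 fold changes, null over wild type, lay between -4.34 and -3.28 by edgeR's estimate, with standard errors between 0.91 and 1.58.

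The rest of the light-chain family did not follow as a whole. By name, 13 light-chain genes were counted and 8 had enough counts to be fitted. Of the 4 that are not members, igl1c3 (ENSDARG00000078975) was lower in both null libraries, at 2.26, 0.663 and 0.579 CPM in wild type and 0.0659 and 0.0296 CPM in null 5 and 6, and missed the rule because 2 wild-type values lay under 1 CPM. In contrast igl4c1 (ENSDARG00000097677), another constant gene, was at 0.638, 3.88 and 0.253 CPM in wild type, compared with 0.0988 and 23.9 CPM in the null pools. It was thus high in wild type 2 and null 6, the libraries with ovary transcripts, and its groups overlapped. igl4v8 and igl3v4 overlapped as well. Null values of 3 counts or fewer set to 3 counts, the mean of wild type 1 and 3 exceeded null 5 for all 4. The folds were 14.4 for igl1c3, 4.51 for igl4c1, 2.88 for igl4v8 and 1.70 for igl3v4. The median log2 fold change of the 4 was -0.73 by edgeR's estimate. Scaled to the summed erythroid list it was 0.94, and to the nephron list -1.77. Of the heavy-chain genes, which pair with light chains in an antibody, ighm (ENSDARG00000096355) overlapped between the groups. It measured 38.4, 18.6 and 9.95 CPM in the wild-type pools, against 10.5 and 1.63 CPM in the null pools. The heavy-chain gene ighd (ENSDARG00000096248) did not overlap, at 4.88, 1.89 and 0.977 CPM against 0.494 and 0.0889 CPM.

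The 3 Toll-like receptors were TLR7, tlr9 and tlr19.1. In mammals TLR7 and TLR9 sit in endosomes and recognise single-stranded RNA and unmethylated DNA, and tlr19 is a receptor known from fish. TLR7 (ENSDARG00000068812) had wild-type counts of 106, 36 and 38 and null counts of 3 and 1. tlr9 (ENSDARG00000044490) drew 78, 44 and 42 counts in the wild-type pools, against 4 and 0 in the null pools. tlr19.1 (ENSDARG00000026663) had wild-type counts of 114, 51 and 30 and null counts of 6 and 0. Each was highest in wild type 1, and both null libraries were close to the smallest level that the depth can show. The edgeR log2 fold changes were -4.88 for TLR7, -4.76 for tlr9 and -4.41 for tlr19.1, with standard errors of 1.08, 1.39 and 1.53.

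Among the other Toll-like receptors the differences were smaller by this estimate, a contrast that the rule favours because it chose members by size. The family has 21 named genes, of which 16 could be fitted. Of the 13 that are not members, 5 had both null values under every wild-type value, 8 overlapped and none was higher. Over all fitted genes, 10.97% were lower without overlap and 11.99% higher, and since genes of this family were chosen with their values known nothing is called particular to it. The log2 fold changes of the 13 ran from -2.65 for tlr20.2 to 1.81 for tlr18, with a median of -1.22 under TMM scaling, edgeR's default, against a median of 0.24 over all 20386 genes fitted. Scaled to the summed erythroid list instead, the median of the 13 was -0.03 and that of all genes 2.04, and scaled to the nephron list they were -3.09 and -1.10. TLR2, whose mammalian counterpart recognises bacterial lipoproteins, had wild-type values of 5.04, 4.71 and 1.95 CPM and null values of 1.15 and 0.711 CPM. tlr8b, a relative of TLR7, overlapped at 5.58, 4.87 and 1.27 CPM against 2.90 and 0.859 CPM. tlr3, whose mammalian counterpart recognises double-stranded RNA, overlapped at 5.29, 6.36 and 2.68 CPM against 7.48 and 1.63 CPM.

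The 10 genes with other symbols encode enzymes, cytoskeletal proteins, signalling proteins, a calcium channel subunit and a splicing factor. MMP21 (ENSDARG00000112495), a matrix metalloproteinase known for its part in left-right asymmetry, was at 75.6, 69.1 and 84.7 CPM in wild type, compared with 11.8 and 3.32 CPM in the null pools. The wild-type libraries were close together, within 1.23-fold, and the null libraries were far below them. The wild-type mean was 76.5 ± 7.83 CPM (SD, n = 3), against a null mean of 7.56 ± 5.99 CPM (SD, n = 2). Of the 18 other matrix metalloproteinase genes fitted, 16 overlapped between the groups and 2 were lower without overlap, near the 10.97% of all fitted genes. Under TMM scaling the median log2 fold change of the 18 was 0.08, against -3.39 for MMP21. With nephron scaling the median of the 18 was -1.73, and that of all 40 members moved from -3.91 to -6.05. The 10 genes were chosen on this difference, so each contrast with relatives here and below is a description.

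srrm4 (ENSDARG00000086327), which in vertebrates promotes the inclusion of short exons in neurons, measured 24.4, 26.9 and 53.2 CPM in the wild-type pools, against 3.29 and 1.51 CPM in the null pools. Its relatives srrm1 and srrm2, general splicing cofactors, overlapped between the groups. Under TMM scaling their log2 fold changes were 0.10 and 0.00, with standard errors of 0.37 and 0.40. That of srrm4 was -3.92, with a standard error of 0.76. With erythroid and nephron scaling the median of srrm1 and srrm2 was 2.203 and -1.15, and that of all 40 members -2.71 and -6.05.

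SHROOM2 and FRMD4B each had a same-named or closely named gene that was higher in the null libraries. SHROOM2 (ENSDARG00000076371), a protein that binds actin at cell junctions, had wild-type values of 28.5, 19.02 and 25.8 CPM and null values of 3.16 and 1.60 CPM. shroom2a (ENSDARG00000076416) was at 14.95, 21.9 and 3.94 CPM in wild type, compared with 50.5 and 38.7 CPM in the null pools. The member FRMD4B (ENSDARG00000076496), a FERM-domain scaffold, measured 18.5, 23.2 and 46.1 CPM in the wild-type pools, against 2.64 and 3.61 CPM in the null pools. A second ID with the same symbol, ENSDARG00000074599, had wild-type values of 8.96, 14.9 and 3.94 CPM and null values of 18.5 and 36.9 CPM. Of each pair, the member was lower in both null libraries and the other gene higher in both, and the wild-type library that was lowest for the second gene, wild type 3, was not the lowest for the member. With nephron scaling shroom2a and the second FRMD4B ID stayed positive, at log2 fold changes of 0.97 and 1.16.

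plaat1l (ENSDARG00000074014), of a family of phospholipid-modifying enzymes, had wild-type values of 28.3, 13.7 and 12.1 CPM and was at 0.889 CPM in each null pool. GARNL3 (ENSDARG00000060631), named for its GTPase-activating domain, was at 14.7, 8.15 and 14.8 CPM in wild type, compared with 2.01 and 0.267 CPM in the null pools. cacna2d2a (ENSDARG00000103390), an accessory subunit of voltage-gated calcium channels, measured 7.20, 5.70 and 9.12 CPM in the wild-type pools, against 1.02 and 0.830 CPM in the null pools. The null libraries were alike for plaat1l and cacna2d2a but not for GARNL3, which was lower in null 6. Of the 4 other CACNA2D genes fitted, 1 was higher in both null libraries and 3 overlapped, where 11.99% of all fitted genes were higher without overlap. The higher gene, cacna2d4b, had low wild-type counts of 5, 3 and 1, against null counts of 12 and 122.

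FSTL4, lipib and ERBB4 had lower counts. FSTL4 (ENSDARG00000044319), a follistatin-like secreted protein, had wild-type values of 3.79, 2.19 and 4.67 CPM and null values of 0.494 and 0.504 CPM. lipib (ENSDARG00000005332), a lipase, drew 45, 39 and 104 counts in the wild-type pools, against 8 and 3 in the null pools, whereas its relative lipia overlapped, at 2.71, 8.78 and 1.88 CPM against 7.35 and 33.8 CPM. The member ERBB4 (ENSDARG00000090408), a receptor tyrosine kinase for neuregulins, had wild-type counts of 45, 52 and 64 and null counts of 10 and 11. Its 5 fitted relatives had positive log2 fold changes, from 0.77 to 2.31, of which EGFR did not overlap between the groups. Among them was a same-named ID, ENSDARG00000089536, at 0, 0.530 and 0.181 CPM in wild type and 0.231 and 2.16 CPM in the null pools. A further ID named ERBB4, ENSDARG00000063207, had too few counts to be fitted. With nephron scaling the median of the 5 fitted relatives turned from 1.29 to -0.29, and EGFR from 2.31 to -0.29. EGFR, the receptor for epidermal growth factor, was at 6.34, 5.80 and 8.40 CPM in wild type, compared with 61.1 and 9.54 CPM in the null pools.

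**Figure D3:**
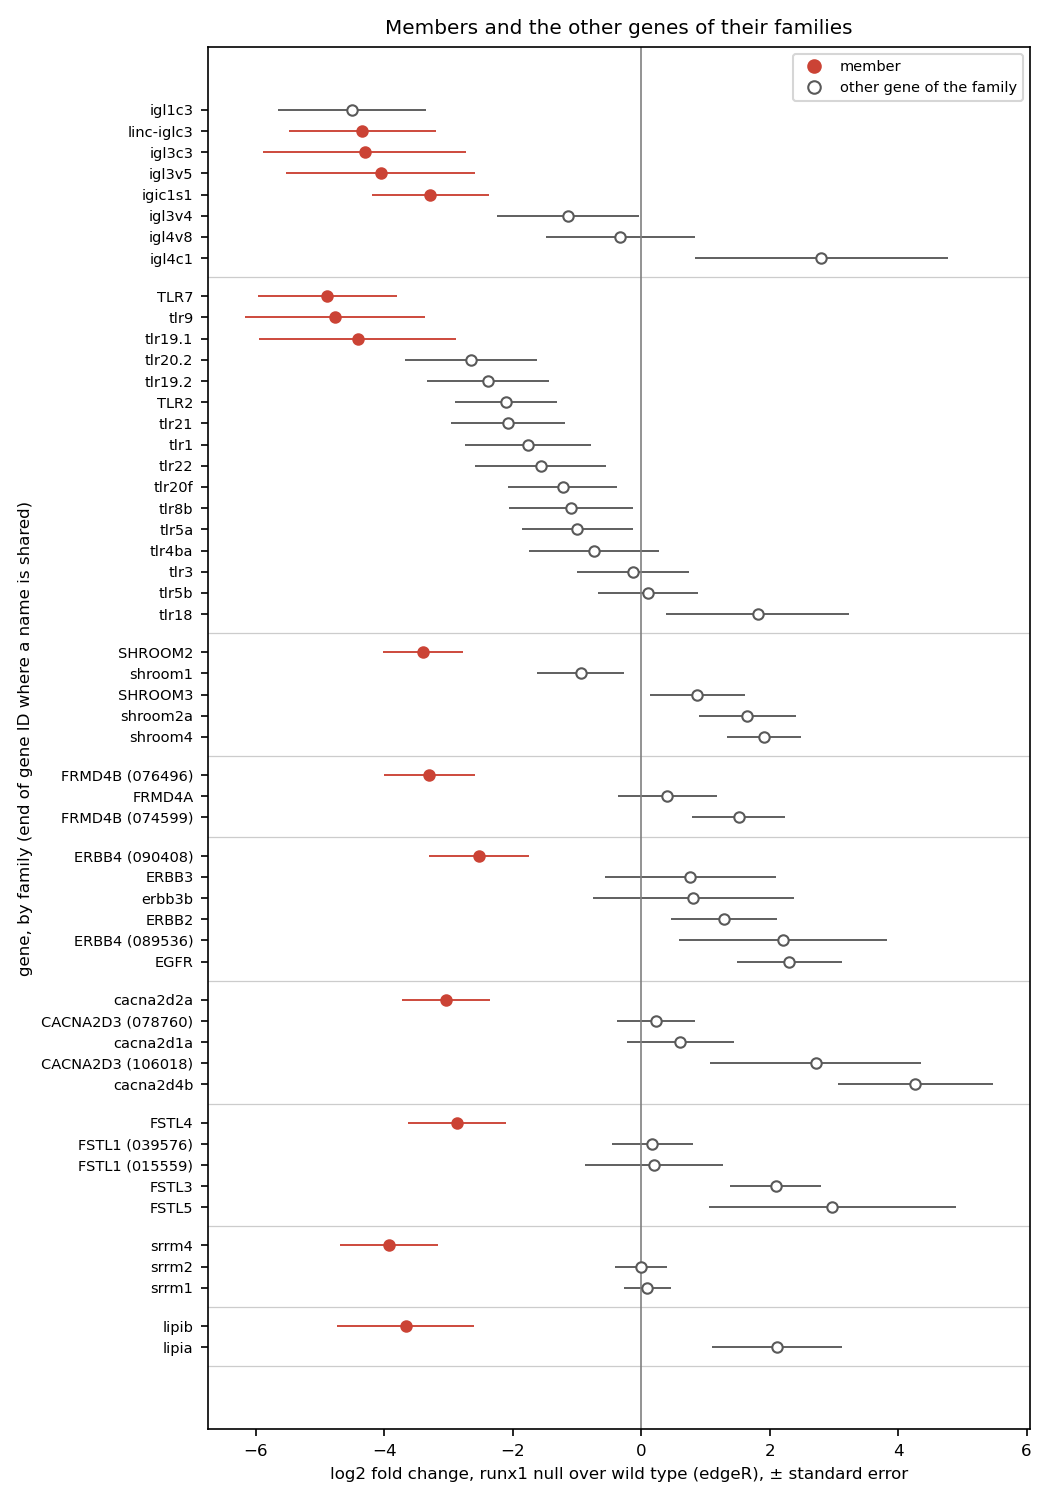
edgeR log2 fold changes, runx1 null over wild type, with standard errors as bars, for the fitted genes of 9 families, where red points are members and open points are the other genes. The members were chosen on this difference, so the distance between red and open points is a description, as for srrm4 at -3.92 beside srrm1 at 0.10.

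Of the 17 genes with clone names, 6 stood at 5 CPM or more in every wild-type library. si:ch73-338d8.1 (ENSDARG00000103750) measured 142, 109 and 192 CPM in the wild-type pools, against 19.9 and 13.3 CPM in the null pools. si:ch211-246m6.5 (ENSDARG00000011673) had wild-type values of 35.4, 30.1 and 55.7 CPM and null values of 4.91 and 6.58 CPM. Both were highest in wild type 3, and their null libraries were close together. si:dkey-78l4.6 (ENSDARG00000071389) was at 19.3, 14.0 and 30.3 CPM in wild type, compared with 2.57 and 0.474 CPM in the null pools. si:ch211-238e22.5 (ENSDARG00000100229) stood at 7.01, 5.67 and 10.1 CPM in wild type, and had 20 and 3 counts in null 5 and 6. For both, null 6 was the lower null library. si:dkey-9i23.5 (ENSDARG00000092459) varied least in wild type, at 6.28, 5.70 and 6.80 CPM, and stood at 0.593 and 0.207 CPM in the null libraries.

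si:dkey-238d18.8 (ENSDARG00000098026) had the widest gap of the 40 genes, with the lowest wild-type value 22.4-fold above the highest null value. It measured 26.3, 14.0 and 12.5 CPM in the wild-type pools, against 0.560 and 0.178 CPM in the null pools, from 824, 422 and 346 counts against 17 and 6. Its log2 fold change by edgeR was -5.59 with a standard error of 0.90. The remaining 11 genes with clone names stood between 1.12 and 12.2 CPM in wild type and between 0.0296 and 1.02 CPM in the null libraries, where they had between 1 and 31 counts. They were si:ch211-238e22.4, si:ch211-117l17.7, si:ch211-157e21.2, si:ch211-114l13.12, si:ch211-69i3.1, si:ch211-246m6.4, si:ch73-106n3.1, si:ch73-106n3.2, si:dkey-238d18.9, si:dkey-238d18.10 and si:dkey-238d18.13. The 6 genes with no symbol stood between 1.06 and 6.79 CPM in wild type and had between 2 and 25 counts in a null library. Their IDs were ENSDARG00000071446, ENSDARG00000089547, ENSDARG00000104112, ENSDARG00000108372, ENSDARG00000109628 and ENSDARG00000113519.

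Members shared clones. Clone si:dkey-238d18 gave 4 of the 40 genes, and si:ch73-106n3, si:ch211-238e22 and si:ch211-246m6 gave 2 each. Genes of 1 clone can be neighbours or near-identical copies, and reads with more than 1 alignment, between 8.58% and 10.3% of all reads, were not given to a gene. Genes of a shared clone may thus not be independent of each other, and how the counting split reads among them was not tested. The 2 named genes of si:ch73-106n3 and the 2 of si:ch211-246m6 were all members. In the clone si:dkey-238d18, 8 of 13 named genes could be fitted. Besides the 4 members, si:dkey-238d18.11 and si:dkey-238d18.4 had both null values under every wild-type value, and the other 2 overlapped, where 10.97% of all fitted genes were lower without overlap. si:dkey-238d18.4 had wild-type values of 30.9, 20.8 and 32.7 CPM and null values of 17.9 and 6.16 CPM, so a clone's genes differed in size of difference. In clone si:ch211-238e22, another gene, si:ch211-238e22.2, was also lower without overlap, at 3.63, 2.39 and 4.20 CPM against 0.857 and 0.296 CPM. The other fitted gene there, si:ch211-238e22.8, overlapped, at 0.351, 0.497 and 0.0724 CPM against 0.889 and 0.148 CPM. All fitted genes besides the member overlapped in si:ch211-114l13, si:ch211-117l17, si:ch211-157e21 and si:ch73-338d8. Of the other fitted genes, 1 of 4 was lower without overlap in si:dkey-9i23, 2 of 4 in si:dkey-78l4 and 1 of 1 in si:ch211-69i3. A table of RefSeq genes on another assembly, GRCz12tu, held 17 of the 40 by symbol, all 17 protein coding, and si:ch211-246m6.4 and si:ch211-246m6.5 had no gene between them there.

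The rule used the wild-type libraries directly only through their lowest value, and the members' highest wild-type value lay in wild type 1 or 3. Of the 40 genes, 23 were highest in wild type 1 and 17 in wild type 3, and none in wild type 2. Over the 13743 genes above 1 CPM in each wild-type library, 37.9% were highest in wild type 1, 24.6% in wild type 2 and 37.5% in wild type 3. Wild type 2 shared ovary transcripts with a null library, and a gene high in both could fail the rule through its null value. The absence of members highest in wild type 2 is thus not read against the 24.6%, and how far the rule set it was not tested. With wild type 2 set aside, 5212 of all these genes were highest in wild type 1 and 5157 in wild type 3. The 23 and 17 are thus not read as an order particular to the members. All 4 light-chain genes and all 3 Toll-like receptors were highest in wild type 1, whereas 8 of the 10 genes with other symbols were highest in wild type 3. The 2 exceptions were SHROOM2 and plaat1l, and GARNL3 was almost equal in the 2 libraries, with a log2 ratio of wild type 1 over wild type 3 of -0.007. The median log2 ratio of wild type 1 over wild type 3 was 1.32 for the light-chain genes, 1.297 for the Toll-like receptors and -0.32 for the genes with other symbols.

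The left-out genes and the marker lists gave the same ratio for comparison. PAX5, cd79a and cd79b were highest in wild type 1, with log2 ratios of 1.31, 1.56 and 0.99, and itga2b and THBS1 (ENSDARG00000010785) were highest in wild type 3, with -0.11 and -0.18. Of the 18 B-cell genes fitted, 17 were highest in wild type 1, and their median ratio was 1.195. Of the 15 thrombocyte genes fitted, 7 were highest in wild type 1 and 6 in wild type 3, with a median of 0.15. Wild type 1 was also the highest library for 8 of 10 neutrophil genes, 12 of 19 T-cell genes and 10 of 10 endothelial genes, so this order was not particular to the B-cell list. Of the 14 erythroid genes fitted, 10 were highest in wild type 3 and 4 in wild type 1, with a median of -0.53. Over the 13743 genes above 1 CPM in each wild-type library, the median was 0.11. The ratio rests on 1 library on each side and has no replicate. It is also on CPM only. Erythroid markers summed to 45658 CPM in wild type 1 and 68318 CPM in wild type 3, and nephron markers to 904 and 179 CPM. Scaling to either list would shift every ratio, and how many signs this would change was not tested.

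**Figure D4:**
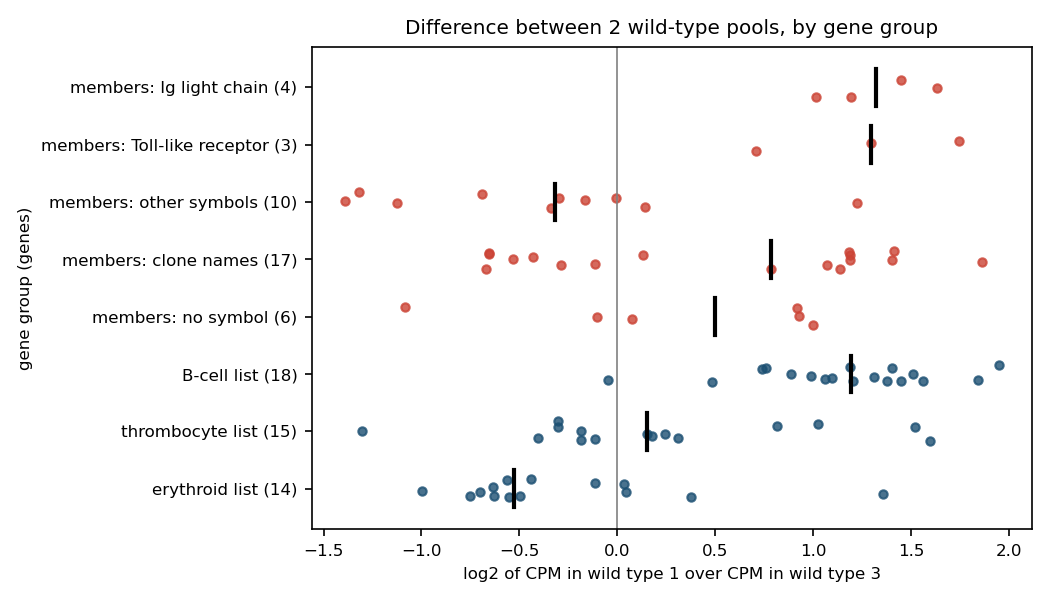
Log2 ratio of CPM in wild type 1 over wild type 3 for each gene, with 1 point per gene and the median as a black bar; red rows are members by group and blue rows are fitted genes of 3 marker lists. The light-chain and Toll-like receptor genes all lie to the right of 0, as do 17 of the 18 B-cell genes, and 8 of the 10 genes with other symbols lie to the left.

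Of the marker lists, only the B-cell list held a member, igic1s1. Lists were matched by symbol, so the 6 members without a symbol could not match. The 17 with only a clone name could match only a list that gave that name. The absence of members from the other lists thus says little about these genes. Of the 18 B-cell genes, 8 had both null values under every wild-type value and none had both above, with a median log2 fold change of -1.30. Over all fitted genes, 10.97% were lower and 11.99% higher in this sense. Among the 8 were 4 that met the rule, igic1s1 and the left-out PAX5, cd79a and cd79b. The B-cell count and median are thus not independent of the choice. Of the 15 thrombocyte genes, 8 were lower without overlap, among them itga2b, which met the rule. TBXAS1 was higher, and the thrombocyte median was -1.48. The medians were -1.43 for 10 neutrophil genes, -1.22 for 14 erythroid genes, -0.13 for 13 macrophage genes, 0.57 for 19 T-cell genes and 0.02 for 25 chemokine and cytokine genes. With erythroid scaling the macrophage median turned to 0.67, and with nephron scaling the T-cell and chemokine medians turned to -1.21 and -1.92, whereas the B-cell, thrombocyte, neutrophil and erythroid medians stayed negative under both. With erythroid scaling these shrank to -0.22, -0.51, -0.47 and -0.35. The erythroid value is no test, since this scaling sets the sum of the same list equal in all libraries. The T-cell, chemokine, macrophage and neutrophil lists had 1 of 19, 2 of 25, 2 of 13 and 0 of 10 genes lower without overlap, which lie near the 10.97% of all fitted genes. The erythroid list had 5 of 14 lower without overlap, above that share, and 1 higher. In edgeR's quasi-likelihood test 0 of 20386 genes passed an adjusted p-value of 0.05, which is 0%, so none of these list genes passed in either direction. Without adjustment, 246 genes were lower and 644 higher at a p under 0.05 in this test. Together they were 890 of the 20386 genes, a share below 0.05, so nothing is read from these counts. The DESeq2 Wald test called 52 genes lower, 0.274% of the 18985 with an adjusted p-value, and 29 higher, 0.153%. Among the list genes it called itga2b, cd79a and cd79b lower and the nephron gene SLC5A1 higher. Of the 52, 32 were among the 40 genes, which were chosen on the same contrast, so nothing is read from that count.

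Runx1 null 6 and null 5 contributed unequally. Null 6 was the lower of the null libraries for 33 of the 40 genes, 82.5%, against 54.6% of all genes above 1 CPM in each wild-type library. Applied without null 5, the rule chose 1358 genes, and without null 6 it chose 49, so null 5 set most of the choice. Without wild type 2 and null 6, the libraries with ovary transcripts, 78 genes met the rule, and between those 2 libraries alone 1985 did. All 40 genes were among them in each case, as the rule requires.

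Sizes were compared between the libraries with and without ovary transcripts for all 40 genes, with a null value of 3 counts or fewer set to 3 counts, as for 3 genes in null 5 and 18 in null 6. The mean of wild type 1 and 3 was 5.38-fold to 38.0-fold above null 5, with a median of 11.8-fold. Wild type 2 was 4.34-fold to 78.7-fold above null 6, with a median of 17.1-fold. The genes set to 3 counts understate their fold, so the medians are not compared with each other. linc-iglc3 was 11.8-fold apart in the first comparison and 74.7-fold in the second, and FRMD4B 12.2-fold and 6.42-fold. The rule fixed the directions and a fold of at least 4 in both comparisons. The sizes come from the values that chose the genes, so they are a description, and each rests on 1 null library.

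**Figure D5:**
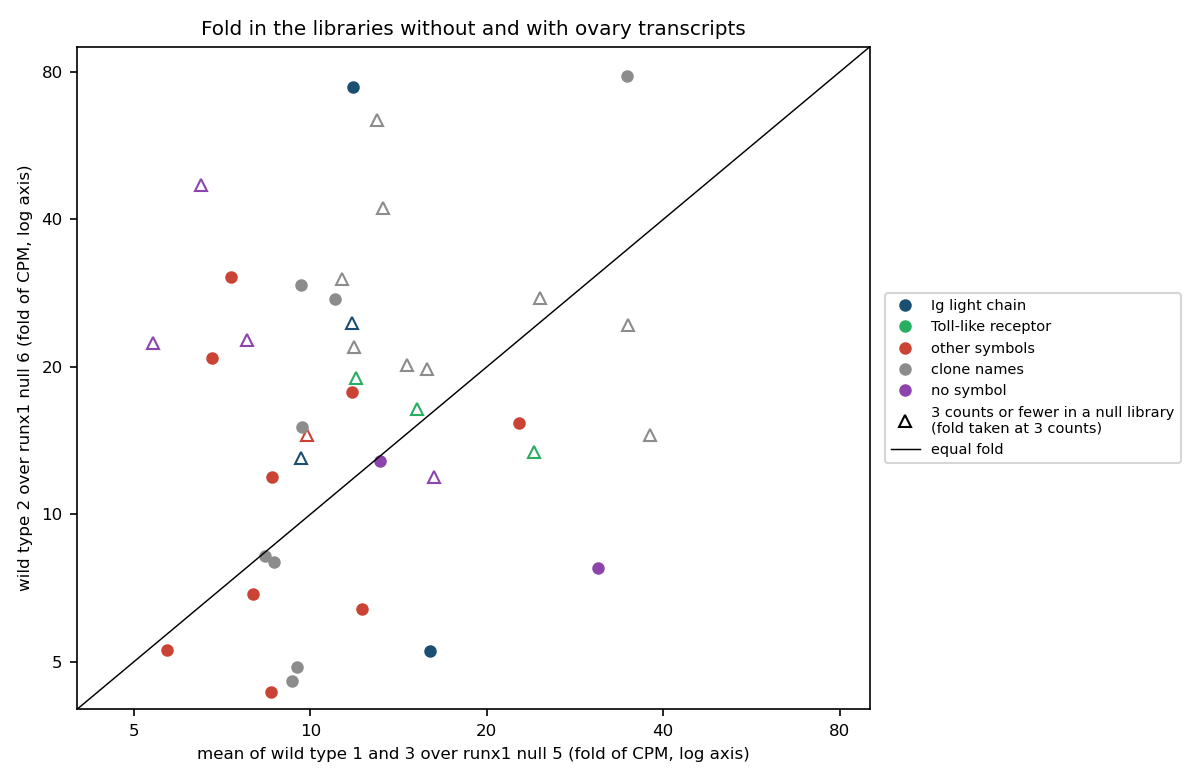
Fold of CPM between the mean of wild type 1 and 3 and runx1 null 5 (horizontal) and between wild type 2 and runx1 null 6 (vertical) for the 40 genes, both on log axes, coloured by group. Triangles mark the 19 genes with 3 counts or fewer in a null library, and the 40 genes lie between 5.38 and 38.0 horizontally and between 4.34 and 78.7 vertically.

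The members were also set against the erythroid genes of the same libraries, since null 6 was low in these. When counts were scaled to the summed erythroid list, the groups still did not overlap for 32 of the 40 genes, against 3.21% of the 13743 genes above 1 CPM in each wild-type library. This share is no test, because the members were chosen on CPM. All 40 genes were lower in null 5 than in both wild type 1 and 3 on this scale, and 35 were lower in null 6 than in wild type 2. The 8 genes that overlapped were igic1s1, FRMD4B, FSTL4, ERBB4, si:ch211-246m6.5, si:ch211-117l17.7, si:ch211-157e21.2 and ENSDARG00000109628. igic1s1 was thus low relative to erythroid genes in null 5, by 15.6-fold against the mean of wild type 1 and 3, but stood at 0.97-fold between wild type 2 and null 6.

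The rule's threshold passes through a continuous range of values. The members nearest to it were GARNL3, ENSDARG00000104112 and FSTL4, whose lowest wild-type value was 4.06-fold, 4.31-fold and 4.34-fold above the highest null value. Just outside were si:ch211-195b11.3 at 3.92-fold, ENSDARG00000104312 at 3.86-fold and carmil3 at 3.84-fold. si:ch211-195b11.3 was at 15.8, 15.8 and 21.4 CPM in wild type, compared with 4.02 and 1.78 CPM in the null pools. ENSDARG00000104312 measured 19.3, 14.6 and 11.7 CPM in the wild-type pools, against 3.03 and 1.16 CPM in the null pools. carmil3, a regulator of actin capping, had wild-type values of 4.97, 2.39 and 2.03 CPM and null values of 0.527 and 0.504 CPM. ENSDARG00000104112 stood at 2.39, 1.99 and 2.57 CPM in wild type and had 14 and 3 counts in null 5 and 6.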

How the data were processed

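RNA was sequenced in 5 libraries, 3 wild type and 2 runx1 null, each from its own pool of kidneys. The authors deposited raw read counts per Ensembl gene; HISAT2 2.2.1.0, HTSeq 0.11.4, DESeq2 and build GRCz11 are named per the submitters' processing notes. The annotation release and the strand setting are not given in the sources used here, so counts of overlapping and antisense genes are uncertain. Rows for reads given to no gene, between 28.1% and 39.4% of reads, were left out. CPM was computed on the sum of gene counts and not per length, so levels are not compared between genes. Limits at 3 counts cover counting error only.

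All genes were fitted with edgeR 4.0.16 (TMM scaling, filterByExpr with minimum count 10 and minimum total 15, robust quasi-likelihood test, two-sided, Benjamini-Hochberg over 20386 genes). The standard error is the absolute log2 fold change divided by the square root of F. The script was tested on simulated data, with a pass required only at a dispersion far below that of these data. Here the square root of edgeR's common dispersion was 0.788, so that pass does not show how many genes the test can find. DESeq2 1.42.0 was an alternative, and R 4.3.3 and Python 3.11.15 were used. All 40 members passed the filter.

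Members and lists were chosen with earlier results of these data known. Members at 5 CPM or more in every wild-type library, members in a list and genes at the threshold were given in full; families, clones and name groups were taken after the values were seen. Of 349 list names, 245 matched exactly 1 ID. Sequences were not used here, and coordinates only for the order of genes in the RefSeq table. Other scalings, thresholds, filters and left-out libraries were tried, as given in the closing section.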

Additional observations from a re-analysis of the deposited data

How the results depend on the processing

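No paired analysis was possible because wild-type libraries carry the numbers 1 to 3 and null libraries 5 and 6. The rule gave 43 genes with TMM library sizes, 44 with DESeq2 size factors (39 shared), 57 at 3-fold and 47 at a minimum of 0.5 CPM. It gave 12 with erythroid scaling and 679 with nephron scaling, which rescale the 1 CPM minimum too, and 16 and 652 where only the fold was rescaled. It gave 12 at 8-fold and 14 at a minimum of 5 CPM. Without 1 library it gave between 48 and 1358. Without wild type 2 and null 6 it gave 78, and for these 2 alone 1985. The count of genes called was 0 in edgeR under every alternative run and 81 in the DESeq2 Wald test.

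The median log2 fold change of the 40 genes was -3.91. No gene changed sign under any alternative run that fitted it. In runs without a library the rule's 4-fold gap fixed the sign. That gap also exceeded the differences between TMM factors, from 0.92 to 1.09, and between DESeq2 size factors, from 0.83 to 1.13. Of the scalings, only the erythroid one moved the median of the 40 genes towards no difference. The unchanged signs in the other runs are thus no test of the choice. The median of the 40 was -2.71 with erythroid scaling and -6.05 with nephron scaling, which moved the median of all genes from 0.24 to 2.04 and -1.10. Without 1 library it lay between -4.90 and -3.39, and with at least 10 counts in every library, which 13 of the 40 genes had, it was -3.17. The cause was not tested. The pairs by ovary transcripts, the rescaled fold alone, the last filter, the fit without the robust option, calls under marker scaling, and list and family medians under each scaling were added after seeing the data. Promoter motifs and positions on GRCz11 were not run, and gene order was taken only from the RefSeq table on GRCz12tu. With 26 of 40 genes under 5 CPM in a wild-type library and at most 31 counts in a null library, depth limits how far null levels can be told apart.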
